A study of Homo sapiens with 15 samples.

Results

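The set examined here comprised 39 human genes of DNA replication and S phase, taken by symbol from a table of 18485 genes and grouped by role from origin licensing to nucleotide supply. Of the 39, 34 had enough counts to be tested and 5 did not (CDT1, MCM2, POLD1, POLE and E2F1). SNB19, a human glioblastoma cell line, was grown in DMEM with serum, transduced with lentivirus made from the pCHMWS vector, and profiled by Nanopore sequencing of PCR-amplified cDNA from polyA RNA, with 15 libraries in 5 groups of 3. The groups were empty vector (EV), full-length ZBTB18 (FL), a mutated full-length ZBTB18 (FL-mut), a short form named Nte (SF-Nte) and a mutated form of Nte (SF-mut). ZBTB18 is a zinc finger transcriptional repressor. All 5 groups carried the lentiviral vector, EV included, and all came from 1 cell line. The labels do not say which residues are mutated, what promoter drives ZBTB18 or whether replicates were separate cultures, and a p-value here therefore rests on library-to-library spread alone, which may be technical. The question was whether the level of any of these genes differed between the 5 groups.

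DNA replication is prepared in G1, when the origin recognition complex, CDC6 and CDT1 load the MCM helicase onto origins. In S phase CDC45, GINS and MCM10 turn that helicase on, the primase and polymerases copy the strands, and PCNA with its RFC loader, FEN1 and LIG1 complete the lagging strand. Ribonucleotide reductase (RRM1 with RRM2) and thymidylate synthase (TYMS) supply the nucleotides. Many of these genes are transcribed under E2F factors around S phase entry, so their mRNA levels in a culture follow the share of cycling cells. In bulk RNA, fewer cells in S phase and less RNA per cell cannot be told apart.

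The promoters of 5 members are shown because 4 of them (RRM2, ORC6, CDC6 and RFC2) had the lowest p-values over the 5 groups, and MCM6 held the most E2F-like letters. Each run covers 250 bases before the annotated start and 30 after it, 5′ to 3′ on the gene's strand, from RefSeq on GRCh38.p14. Capitals mark the letters TTTCCCGC, TTTGGCGC, TTTGCCGC or TTTCGCGC on either strand.
RRM2 (chr2:10122489-10122768, plus strand): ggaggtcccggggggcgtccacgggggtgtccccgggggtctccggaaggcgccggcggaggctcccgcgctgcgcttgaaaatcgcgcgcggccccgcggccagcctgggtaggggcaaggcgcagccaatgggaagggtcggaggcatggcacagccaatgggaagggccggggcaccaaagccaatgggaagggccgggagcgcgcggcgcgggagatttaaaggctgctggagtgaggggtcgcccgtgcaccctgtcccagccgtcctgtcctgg
ORC6 (chr16:46689409-46689688, plus strand): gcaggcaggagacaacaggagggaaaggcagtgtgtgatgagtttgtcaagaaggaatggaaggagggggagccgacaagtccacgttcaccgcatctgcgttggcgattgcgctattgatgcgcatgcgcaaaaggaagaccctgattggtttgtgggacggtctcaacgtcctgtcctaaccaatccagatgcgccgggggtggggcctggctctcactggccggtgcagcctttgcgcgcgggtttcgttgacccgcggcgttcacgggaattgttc
CDC6 (chr17:40287629-40287908, plus strand): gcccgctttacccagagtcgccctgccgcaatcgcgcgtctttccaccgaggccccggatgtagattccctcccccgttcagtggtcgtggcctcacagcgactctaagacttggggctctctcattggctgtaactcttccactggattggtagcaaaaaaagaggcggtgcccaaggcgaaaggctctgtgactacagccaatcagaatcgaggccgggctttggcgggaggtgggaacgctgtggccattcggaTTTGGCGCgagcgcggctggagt
RFC2 (chr7:74254370-74254649, minus strand): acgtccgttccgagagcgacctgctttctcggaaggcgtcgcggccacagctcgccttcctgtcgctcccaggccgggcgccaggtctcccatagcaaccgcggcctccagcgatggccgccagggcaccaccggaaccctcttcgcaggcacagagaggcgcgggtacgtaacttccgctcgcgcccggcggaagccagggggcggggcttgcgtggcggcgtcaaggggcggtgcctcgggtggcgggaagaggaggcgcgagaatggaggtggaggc
MCM6 (chr2:135876414-135876693, minus strand): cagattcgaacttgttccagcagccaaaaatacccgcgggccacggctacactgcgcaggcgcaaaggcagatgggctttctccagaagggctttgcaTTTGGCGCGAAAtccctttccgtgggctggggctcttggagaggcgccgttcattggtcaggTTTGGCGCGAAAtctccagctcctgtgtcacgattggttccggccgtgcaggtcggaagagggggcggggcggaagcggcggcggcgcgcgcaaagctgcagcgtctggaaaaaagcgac
RRM2 has 2 annotated start windows, of which the first is printed. The RRM2, ORC6 and RFC2 promoters held none of the 4 motifs, CDC6 held 1 just after its start, and MCM6 held 4 as 2 overlapping pairs. Windows of 300 bases, reaching 50 bases past the start, were searched for 33 of the 39 members, and 17 members (51.5%) held at least 1 match, against 4.0% of all 27305 genes with a promoter. Some genes have several windows. Counted by window, 18 of the members' 42 (42.9%) and 1164 of all 35116 (3.3%) held a match. These are matches of letters, and binding was not measured.

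Depth differed between the forms. Total counts ran from 1274474 to 1930245 per library in EV, from 803316 to 1393060 in FL, from 865997 to 1313573 in FL-mut, from 432611 to 603155 in SF-Nte and from 315693 to 597414 in SF-mut, so 3 counts over a group stood for 0.667 CPM (counts scaled to library size with TMM factors) in EV and 2.11 CPM in SF-mut. ZBTB18 itself was at 6.17 ± 1.55 CPM in EV (SD over 3 libraries, as in every mean below) and was at 7.001, 4.37 and 7.12 CPM in its libraries. It was at 635, 3067 and 623 CPM in FL, 907, 2800.0 and 6858 CPM in FL-mut, 470.0, 199 and 234 CPM in SF-Nte and 853, 3631 and 896 CPM in SF-mut. ZBTB18 was above EV in all 4 ZBTB18 groups, with log2 fold changes from 5.58 in SF-Nte to 9.12 in FL-mut and adjusted p from 0.00131 to 0.0493 (edgeR, Benjamini-Hochberg). The summed level of 10 glioma markers was 565 to 1164 CPM in EV, 265 to 711 CPM in FL, 624.7 to 999 CPM in FL-mut, 1049.7 to 1253 CPM in SF-Nte and 1124 to 1261 CPM in SF-mut, led by VIM (at most 844 CPM), while GFAP reached only 7.53 and S100B only 4.16 CPM. Sums of other markers ranged from 3.27 to 34.7 CPM for immune cells (4 of 7 read), 15.3 to 151 CPM for epithelial cells (4 of 5), 1.13 to 21.4 CPM for endothelial cells (3 of 4) and 0 to 8.01 CPM for oligodendrocytes (3 of 4). Those of neurons (4 of 5) were 0 to 1.78 CPM in EV, 2.49 to 7.74 CPM in FL, 11.8 to 89.4 CPM in FL-mut, 0 to 1.88 CPM in SF-Nte and 3.27 to 37.0 CPM in SF-mut, mostly TUBB3 (at most 87.1 CPM). No marker read was at 0 in every library, and the part of these markers in the results was not tested. The barcode names of SF-mut repeat those of EV with a suffix, while those of SF-Nte continue the series of EV, FL and FL-mut. A sample sheet lists SF-mut with SF-Nte. Any separate handling of SF-mut alone cannot be told apart from its construct, in every comparison that includes SF-mut. The same holds for separate handling of both short forms and the form.

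The summed level of the 39 genes overlapped between groups. It was 2741 ± 276 CPM in EV, 2249 ± 541 CPM in FL, 2852 ± 160 CPM in FL-mut, 2411 ± 168 CPM in SF-Nte and 2667 ± 466 CPM in SF-mut. The ranges of all 4 ZBTB18 groups overlapped that of EV (2427 to 2948 CPM). The labels give no pairing, and same-numbered EV and FL libraries were taken as pairs from correlations in these same data. Within such pairs the sum was lower in FL in all 3, at 2796 against 2948, 2238 against 2848 and 1714 against 2427 CPM. With the replicate number as a block edgeR called 0 members in FL against EV.

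No member passed an adjusted p of 0.05 in edgeR, in the test of any difference among the 5 groups or in any of the 9 other comparisons. In the joint test 76 of 6767 genes did (1.12%). At an unadjusted p under 0.05, 4 of 34 members (11.8%) were counted, namely RRM2, ORC6, CDC6 and RFC2, against 16.3% of all genes, so the members' share was not above the background. DESeq2 called 3 of 34, RRM2, ORC6 and CDC6, with adjusted p of 0.00321, 0.0300 and 0.0249, where it called 9.65% of all genes. The edgeR adjusted p for these genes was 0.0928 for RRM2, 0.179 for ORC6, 0.197 for CDC6 and 0.289 for RFC2. RRM2 passed in edgeR when SF-mut replicate 2 (adjusted p = 0.0401) or SF-mut replicate 3 (0.0456) was left out, and with the replicate number as a block (0.0390).

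**Figure D1:**
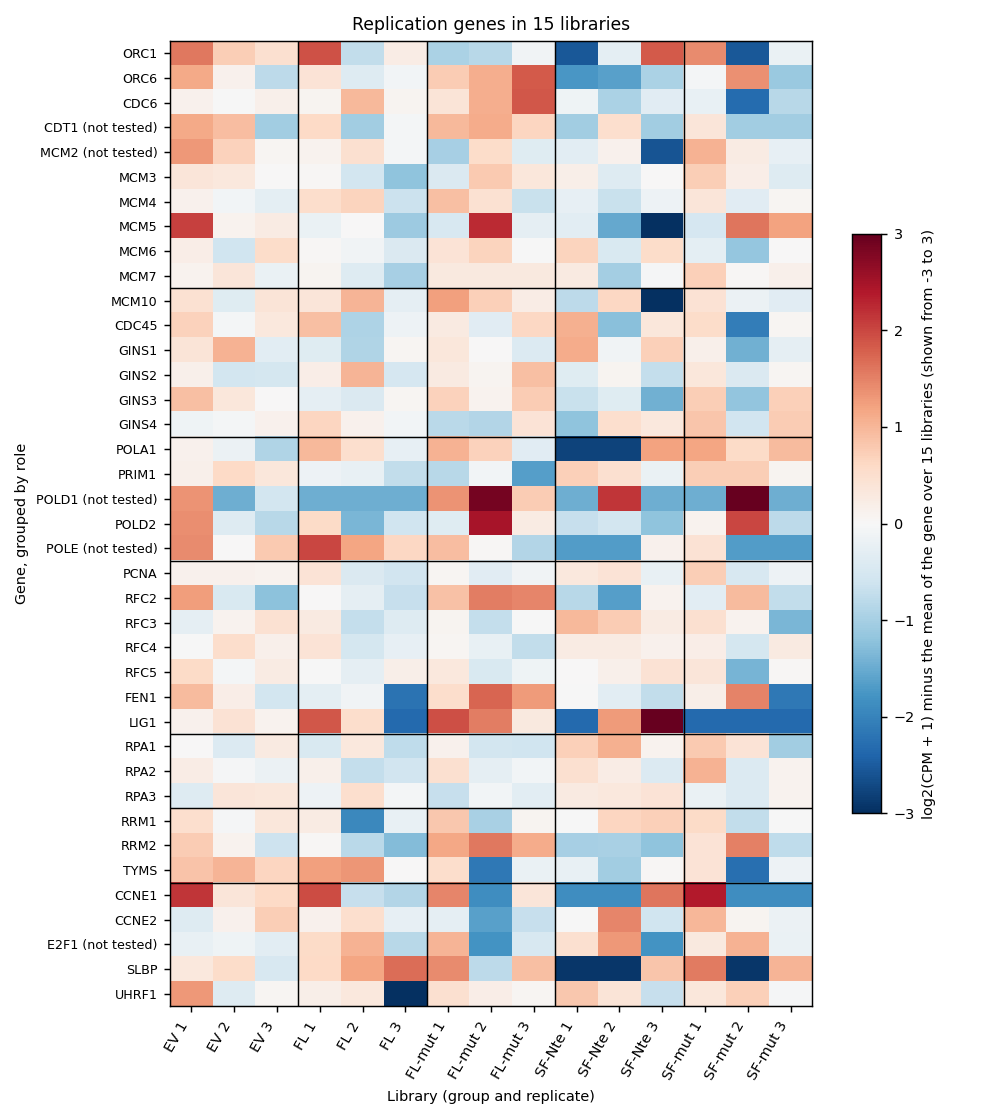
Level of each of the 39 genes (rows, grouped by role, with lines between roles) in 15 libraries (columns), as log2(CPM + 1) minus the gene's mean over the 15 libraries. Red is above and blue below that mean. Libraries of 1 group often differ as much as groups do, for example RRM2 and POLD2 within SF-mut.

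Nucleotide supply held the gene nearest the threshold. RRM2, the small subunit of ribonucleotide reductase (chr2:10120698-10131419 in the GENCODE annotation of GRCh38), was read at 208, 132 and 80.1 CPM in EV, 127, 69.7 and 49.4 CPM in FL, 275, 371 and 265 CPM in FL-mut, 61.6, 62.1 and 52.3 CPM in SF-Nte and 165, 351 and 71.8 CPM in SF-mut. FL-mut lay above every EV, FL and SF-Nte library, SF-Nte lay below every EV library, and SF-mut reached from the FL range into that of FL-mut. The log2 fold change of RRM2 was 1.88 ± 0.51 (SE) in FL-mut against FL (edgeR adjusted p = 0.232, DESeq2 adjusted p = 0.0275) and 1.11 ± 0.50 in FL-mut against EV (edgeR adjusted p = 0.448). It was -1.25 ± 0.51 in SF-Nte against EV (edgeR adjusted p = 0.606) and 1.73 ± 0.52 in SF-mut against SF-Nte (edgeR adjusted p = 0.574). The last value was 1.01 without SF-mut replicate 2. In SF-mut against EV the value was 0.47 ± 0.50 and turned to -0.25 without that library. The direction of RRM2 in SF-mut against EV thus rested on 1 library.

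TYMS, which makes thymidylate (chr18:657604-673578), was read at 142, 160.3 and 122 CPM in EV, 184, 197 and 78.4 CPM in FL, 113, 17.0 and 67.8 CPM in FL-mut, 67.4, 37.6 and 79.7 CPM in SF-Nte and 105, 15.4 and 69.7 CPM in SF-mut. All libraries of FL-mut, SF-Nte and SF-mut were below all EV libraries, while FL overlapped EV. The log2 fold changes against EV were -1.09 ± 0.62, -1.20 and -1.13 ± 0.63 in these groups in the same order, with edgeR adjusted p of 0.564 in FL-mut and 0.940 in SF-mut. Replicate 2 was the lowest library of FL-mut and of SF-mut, and without it the values were -0.68 and -0.71. TYMS shares 967 exon bases with ENOSF1 on the other strand, so its counts are uncertain where counting did not use strand. RRM1, the large subunit of the reductase, had group means from 63.8 ± 39.3 CPM in FL to 117 ± 29.4 CPM in SF-Nte, and its joint adjusted p in edgeR was 0.823.

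**Figure D2:**
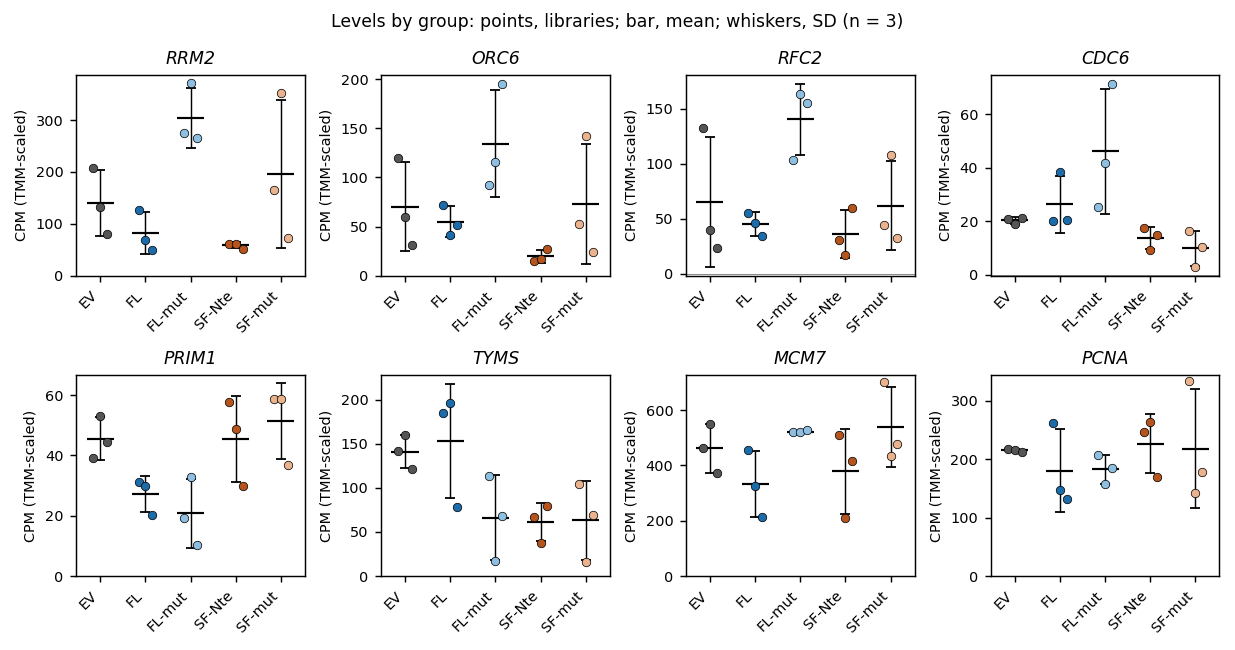
Levels of 8 genes in CPM (linear axes from about 0), by group. Points are libraries, bars means and whiskers the SD of 3 libraries. RRM2 is at 265 to 371 CPM in FL-mut and at 49.4 to 127 CPM in FL, while PCNA overlaps between EV and FL, SF-Nte and SF-mut.

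Among the genes of origin licensing, ORC6 and CDC6 stood nearest the threshold. ORC6, a subunit of the origin recognition complex (chr16:46689643-46698394), was read at 120.0, 59.7 and 31.2 CPM in EV, 72.1, 41.0 and 51.3 CPM in FL, 91.9, 115 and 195 CPM in FL-mut, 15.4, 16.9 and 27.4 CPM in SF-Nte and 52.3, 142 and 24.6 CPM in SF-mut. SF-Nte was below every library of EV, FL and FL-mut, and EV and SF-mut each spread over more than a doubling. The log2 fold change of SF-Nte was -1.84 ± 0.63 against EV (edgeR adjusted p = 0.599) and -1.48 ± 0.64 against FL (0.321). SF-mut was at 1.85 ± 0.65 against SF-Nte (edgeR adjusted p = 0.574), and at 0.96 without SF-mut replicate 2. FL-mut was at 1.29 ± 0.58 against FL (edgeR adjusted p = 0.397).

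CDC6, which loads the helicase with CDT1 (chr17:40287633-40304657), was at 21.0, 18.9 and 21.4 CPM in EV, 20.1, 38.6 and 20.3 CPM in FL, 25.2, 41.9 and 71.5 CPM in FL-mut, 17.3, 9.41 and 14.9 CPM in SF-Nte and 16.3, 3.08 and 10.3 CPM in SF-mut. The groups lay in the order FL-mut, then EV, then both short forms, and FL overlapped EV and FL-mut. CDC6 was 2.13 ± 0.59 log2 units lower in SF-mut than in FL-mut, with an edgeR adjusted p of 0.225 and a DESeq2 adjusted p of 0.0488. Only 16 counts over the group stood behind the SF-mut level and 159 behind that of FL-mut. In FL-mut against EV the log2 fold change of CDC6 was 1.18 ± 0.53 (edgeR adjusted p = 0.456) and was 0.66 without FL-mut replicate 3. In SF-mut against EV it was -0.96 ± 0.59 (0.945).

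The helicase subunits MCM3, MCM4, MCM5, MCM6 and MCM7 were tested, and MCM2 was not. MCM7 (chr7:100092728-100101940), the member with the most counts (6274 in all), was at 372 to 550.0 CPM in EV, 215 to 455 CPM in FL, 519 to 526 CPM in FL-mut, 209 to 510.4 CPM in SF-Nte and 435 to 703 CPM in SF-mut. Its log2 fold change against EV had 95% intervals of -0.54 to 0.89 in FL-mut and -0.49 to 0.94 in SF-mut, so a doubling or halving lay outside both. MCM7 shares 392 exon bases with AP4M1 on the other strand. MCM3 was at 148, 144 and 117 CPM in EV, 119, 78.4 and 49.4 CPM in FL, 84.8, 201 and 147 CPM in FL-mut, 131, 88.4 and 117 CPM in SF-Nte and 194, 133 and 88.2 CPM in SF-mut. FL overlapped EV only through replicate 1, and the FL against EV change was -0.72 ± 0.40 (edgeR adjusted p = 0.774).

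MCM5 was the most uneven subunit, at 33.5, 8.01 and 8.90 CPM in EV, 6.24, 7.46 and 2.90 CPM in FL, 5.05, 38.5 and 5.90 CPM in FL-mut, 5.78, 1.88 and 0 CPM in SF-Nte and 4.90, 24.7 and 18.5 CPM in SF-mut. FL and SF-Nte lay below all EV libraries, and EV replicate 1 and FL-mut replicate 2 stood far above the others of their groups. The log2 fold change was -1.60 ± 0.95 in FL against EV (edgeR adjusted p = 0.790), and -0.61 without EV replicate 1. In SF-Nte against EV it was -2.60 ± 1.11 (0.634), with 4 counts in all in SF-Nte, and -1.61 without EV replicate 1. MCM4 and MCM6 had joint adjusted p of 0.839 and 0.893 in edgeR. ORC1, the ATPase subunit of the origin recognition complex, had 0 to 33 counts per library, and its FL-mut libraries (2.02 to 4.42 CPM) were below those of EV (7.12 to 16.5 CPM). The untested CDT1 and MCM2 had 26 and 95 counts over the 15 libraries.

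None of the 6 genes of helicase activation had an unadjusted p under 0.05 in the joint test. GINS2 was at 42.0, 25.5 and 25.8 CPM in EV, 43.0, 77.1 and 26.1 CPM in FL, 45.4, 39.6 and 70.8 CPM in FL-mut, 28.9, 39.5 and 22.4 CPM in SF-Nte and 47.4, 27.7 and 38.96 CPM in SF-mut. EV and FL overlapped, and FL replicate 2 carried much of the FL against EV change of 0.63 ± 0.46 (edgeR adjusted p = 0.854), which was 0.15 without it. GINS4, of the same complex, was at 21.5, 22.6 and 25.8 CPM in EV, 37.4, 26.1 and 22.3 CPM in FL, 13.1, 12.4 and 31.7 CPM in FL-mut, 9.63, 33.9 and 29.9 CPM in SF-Nte and 42.5, 15.4 and 41.0 CPM in SF-mut, so its groups overlapped. GINS3 was at 22.3 to 42.5 CPM in EV and 7.47 to 16.9 CPM in SF-Nte, without overlap, at a log2 fold change of -1.28 ± 0.55 (edgeR adjusted p = 0.640). CDC45, GINS1 and MCM10 had joint adjusted p of 0.986, 0.698 and 0.809 in edgeR.

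Against EV the 3 tested polymerase and primase genes differed in direction in FL, FL-mut and SF-Nte, while all 3 were above 0 in SF-mut. PRIM1, the catalytic subunit of the primase that makes the RNA primers (chr12:56731596-56752373), was at 39.01, 53.2 and 44.5 CPM in EV, 31.2, 29.9 and 20.3 CPM in FL, 19.2, 32.8 and 10.3 CPM in FL-mut, 57.8, 48.9 and 29.9 CPM in SF-Nte and 58.8, 58.6 and 36.9 CPM in SF-mut. Both full-length groups lay below every EV library, and both short-form groups overlapped EV. The log2 fold change against EV was -0.74 ± 0.45 in FL (edgeR adjusted p = 0.796) and -1.14 ± 0.46 in FL-mut (0.400). SF-mut was above FL-mut without overlap, at 1.32 ± 0.47 (edgeR adjusted p = 0.349). PRIM1 shares 132 exon bases with HSD17B6 on the other strand and 33 with NACA on its own.

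POLA1, the catalytic subunit of the polymerase that extends the primers, was read at 6.50, 5.10 and 2.67 CPM in EV, 12.5, 8.71 and 4.84 CPM in FL, 13.1, 10.2 and 4.42 CPM in FL-mut, 0, 0 and 14.9 CPM in SF-Nte and 14.7, 9.25 and 12.3 CPM in SF-mut. SF-mut was above all EV libraries, at 1.32 ± 1.03 (edgeR adjusted p = 0.997), from 18 counts against 23. POLD2, a subunit of the lagging-strand polymerase (chr7:44114681-44124358), was at 125, 35.7 and 25.8 CPM in EV, 70.0, 17.4 and 31.0 CPM in FL, 36.4, 265 and 56.0 CPM in FL-mut, 28.9, 32.0 and 19.9 CPM in SF-Nte and 50.7, 191 and 26.7 CPM in SF-mut. A single library was far above the other two in EV, FL, FL-mut and SF-mut. POLD1, the catalytic subunit of the same polymerase, was too low to test. It had 0 counts in all FL libraries and 12, 0 and 1 counts in EV, so its level in EV rested on replicate 1. POLE, the leading-strand polymerase, had 60 counts in all and was not tested.

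The sliding clamp was among the steadiest members. PCNA (chr20:5114953-5126626) was at 217, 216 and 212 CPM in EV, 262, 147 and 133 CPM in FL, 207, 157 and 185 CPM in FL-mut, 247, 263 and 169 CPM in SF-Nte and 333, 142 and 178 CPM in SF-mut. FL-mut lay below EV by a small margin, and the other groups spread on both sides of it. The 95% interval of the PCNA log2 fold change against EV stayed within a doubling and a halving in all 4 ZBTB18 groups: -0.99 to 0.49 in FL, -0.97 to 0.51 in FL-mut, -0.67 to 0.82 in SF-Nte and -0.72 to 0.77 in SF-mut.

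Of the clamp loader subunits, RFC2 (chr7:74231499-74254458) was at 133, 40.1 and 23.1 CPM in EV, 55.5, 46.0 and 33.9 CPM in FL, 103, 163 and 155 CPM in FL-mut, 30.8, 16.9 and 59.8 CPM in SF-Nte and 44.1, 108 and 32.8 CPM in SF-mut. FL-mut was above all FL libraries and overlapped EV only through EV replicate 1. The log2 fold change was 1.63 ± 0.62 in FL-mut against FL (edgeR adjusted p = 0.334) and 1.09 ± 0.61 against EV (0.557). The latter was 2.13 without EV replicate 1 and 0.64 without EV replicate 3. RFC3 was at 19.0, 24.8 and 32.1 CPM in EV, 27.7, 13.7 and 17.4 CPM in FL, 24.2, 13.6 and 22.9 CPM in FL-mut, 46.2, 39.5 and 27.4 CPM in SF-Nte and 32.7, 24.7 and 8.20 CPM in SF-mut. Its SF-Nte libraries overlapped EV and FL, at 0.59 ± 0.52 against EV (edgeR adjusted p = 0.870) and 0.93 ± 0.53 against FL (0.477). RFC4 and RFC5 had joint adjusted p of 0.769 and 0.936 in edgeR.

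FEN1, the nuclease that trims flaps between Okazaki fragments (chr11:61792637-61797244), was at 42.5, 24.8 and 14.2 CPM in EV, 17.3, 19.9 and 3.87 CPM in FL, 31.3, 74.7 and 53.1 CPM in FL-mut, 21.2, 16.9 and 12.5 CPM in SF-Nte and 24.5, 61.6 and 4.10 CPM in SF-mut. FL-mut was above FL without overlap, at 1.94 ± 0.74 (edgeR adjusted p = 0.337), and FEN1 shares 166 exon bases with TMEM258 on the other strand and 49 with FADS2 on its own. LIG1, the ligase that seals the fragments (chr19:48115445-48170603), was at 4.50, 5.83 and 4.45 CPM in EV, 17.3, 6.22 and 0 CPM in FL, 18.2, 13.6 and 5.16 CPM in FL-mut, 0, 11.3 and 59.8 CPM in SF-Nte and 0 in all 3 SF-mut libraries. At a floor of 3 counts over the group, SF-mut was at least 2.34-fold lower than EV, where LIG1 had 22 counts, and at least 5.84-fold lower than FL-mut, where it had 37. The SF-Nte mean came mostly from replicate 3, so no fold against it is given. The floor covers counting error only. LIG1 in SF-mut had an unadjusted edgeR p of 0.0646 against EV, 0.00768 against SF-Nte and 0.0189 against FL-mut. The adjusted p values were 0.923, 0.574 and 0.395 in the same order. The edgeR interval of the LIG1 log2 fold change in SF-mut against EV, -10.8 to 0.36, included no change. Without SF-Nte replicate 3 the LIG1 change in SF-Nte against EV went from 2.20 ± 1.29 to 0.18.

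The single-strand binding genes differed little against their spread. RPA3 (chr7:7636518-7718607) was at 309, 522 and 511 CPM in EV, 359.9, 576 and 386 CPM in FL, 248, 379 and 321 CPM in FL-mut, 483, 504 and 535 CPM in SF-Nte and 349.7, 302 and 435 CPM in SF-mut. Each ZBTB18 group overlapped EV, while SF-mut lay below SF-Nte without overlap, at -0.49 ± 0.28 (edgeR adjusted p = 0.672). FL-mut was at -0.50 ± 0.28 against EV (edgeR adjusted p = 0.558) and at -0.48 ± 0.28 against FL (0.510). RPA3 shares 118 exon bases with UMAD1, and RPA1 156 with SMYD4, on the other strand. RPA1 was at 14.003, 10.2 and 16.9 CPM in EV, 9.71, 17.4 and 7.74 CPM in FL, 15.1, 9.05 and 8.85 CPM in FL-mut, 23.1, 30.1 and 14.9 CPM in SF-Nte and 24.5, 18.5 and 6.15 CPM in SF-mut. SF-Nte overlapped EV and FL, at 0.74 ± 0.59 against EV (edgeR adjusted p = 0.853) and 0.98 ± 0.60 against FL (0.510). RPA2 had a joint adjusted p of 0.834 in edgeR.

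Of the S phase entry and chromatin genes, SLBP, which binds histone mRNA, was at 8.50, 10.2 and 4.45 CPM in EV, 10.4, 16.2 and 23.2 CPM in FL, 19.2, 3.40 and 13.3 CPM in FL-mut, 0, 0 and 12.5 CPM in SF-Nte and 21.2, 0 and 14.4 CPM in SF-mut. FL was above EV by a narrow margin, at 1.08 ± 1.02 (edgeR adjusted p = 0.904), from 52 and 36 counts. CCNE2, a cyclin of S phase entry, was at 17.5, 25.5 and 39.2 CPM in EV, 25.7, 33.6 and 19.4 CPM in FL, 19.2, 6.79 and 14.009 CPM in FL-mut, 23.1, 65.9 and 14.9 CPM in SF-Nte and 47.4, 24.7 and 20.5 CPM in SF-mut. SF-mut was above FL-mut without overlap, at 1.21 ± 0.62 (edgeR adjusted p = 0.546), and 1629 of its exon bases are shared with INTS8 on the other strand. The cyclin CCNE1 and UHRF1, which recruits DNA methylation after replication, had joint adjusted p of 0.975 and 0.949 in edgeR. E2F1, the transcription factor, had 40 counts over 15 libraries and was not tested.

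FL against EV asks what full-length ZBTB18 changed. Of the 34 members, 25 had a fitted fold change below 0 and 9 above it, with a median log2 fold change of -0.31, against -0.01 over all genes (49.6% above 0). Without EV replicate 1, 15 of 34 were above 0. All 3 RPA genes and 6 of 8 licensing genes were below 0. No member passed at an unadjusted p under 0.05, where 7.64% of all genes did, and edgeR called 21 genes of 6767 after adjustment (0.31%). DESeq2 called 0 members and 1.89% of genes. In 3 members the libraries did not overlap (MCM5 and PRIM1 lower, SLBP higher), against 16.9% of all genes. Within same-numbered pairs, 10 members were lower in FL in all 3 pairs (29.4%), among them RRM2, MCM3, MCM7 and FEN1, and 3 were higher (8.82%), namely GINS2, POLA1 and SLBP. Of all genes 18.7% were lower and 19.3% higher in all 3 pairs. The summed glioma markers, at 265 to 711 CPM in FL and 565 to 1164 CPM in EV, reached lower in FL with an overlap, and their part was not tested. The median ranged from -0.71 without FL replicate 1 to -0.19 without EV replicate 1. In the 4 comparisons with EV the same 3 EV libraries served as the control.

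FL-mut against EV asks the same of the mutated full-length form. The members split evenly, 17 above and 17 below 0, with a median of -0.00 against 0.04 over all genes. The median was 0.18 without EV replicate 1 and -0.16 without EV replicate 3, so it had no settled direction. The neuron marker sum was above that of EV in all FL-mut libraries, as it was in all FL and SF-mut libraries, and its part was not tested. CDC6 and RRM2 (higher) and PRIM1 (lower) had an unadjusted p under 0.05, which was 8.82% of the members and 10.5% of all genes. EdgeR called 0.192% of genes after adjustment and DESeq2 2.87%, in both cases with no member among them, though 8 members had no DESeq2 adjusted p. The libraries of 6 members did not overlap (CDC6 and RRM2 higher, ORC1, PRIM1, PCNA and TYMS lower), against 17.4% of all genes.

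SF-Nte against EV asks what the short form changed. Here 22 members were below 0 and 12 above, with a median of -0.15, close to that over all genes (-0.13). ORC6, MCM5, GINS3 and RRM2 were lower at an unadjusted p under 0.05, which was 11.8% of the members against 7.23% of all genes in either direction. After adjustment edgeR called 0.0443% of genes and DESeq2 0.355%, with no member. Groups did not overlap for 6 members, all lower in SF-Nte (ORC6, CDC6, MCM5, GINS3, RRM2 and TYMS), against 17.3% of all genes in either direction. The members' median went to -0.37 without EV replicate 3.

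SF-mut against EV asks the same of the mutated short form. The members split 16 above and 18 below 0, with a median of -0.12 against -0.02 over all genes. The median was -0.37 without SF-mut replicate 1, with 9 of 35 members above 0, and turned to 0.19 without EV replicate 1 and to 0.07 without SF-mut replicate 3. LIG1 lies below that median at its fitted value and at its bound alike. None had an unadjusted p under 0.05, against 5.36% of all genes, and edgeR and DESeq2 called 0.0591% and 0.482% of genes after adjustment with no member (7 members had no DESeq2 adjusted p). CDC6, LIG1 and TYMS were lower and POLA1 higher without overlap, against 10.6% of all genes.

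**Figure D3:**
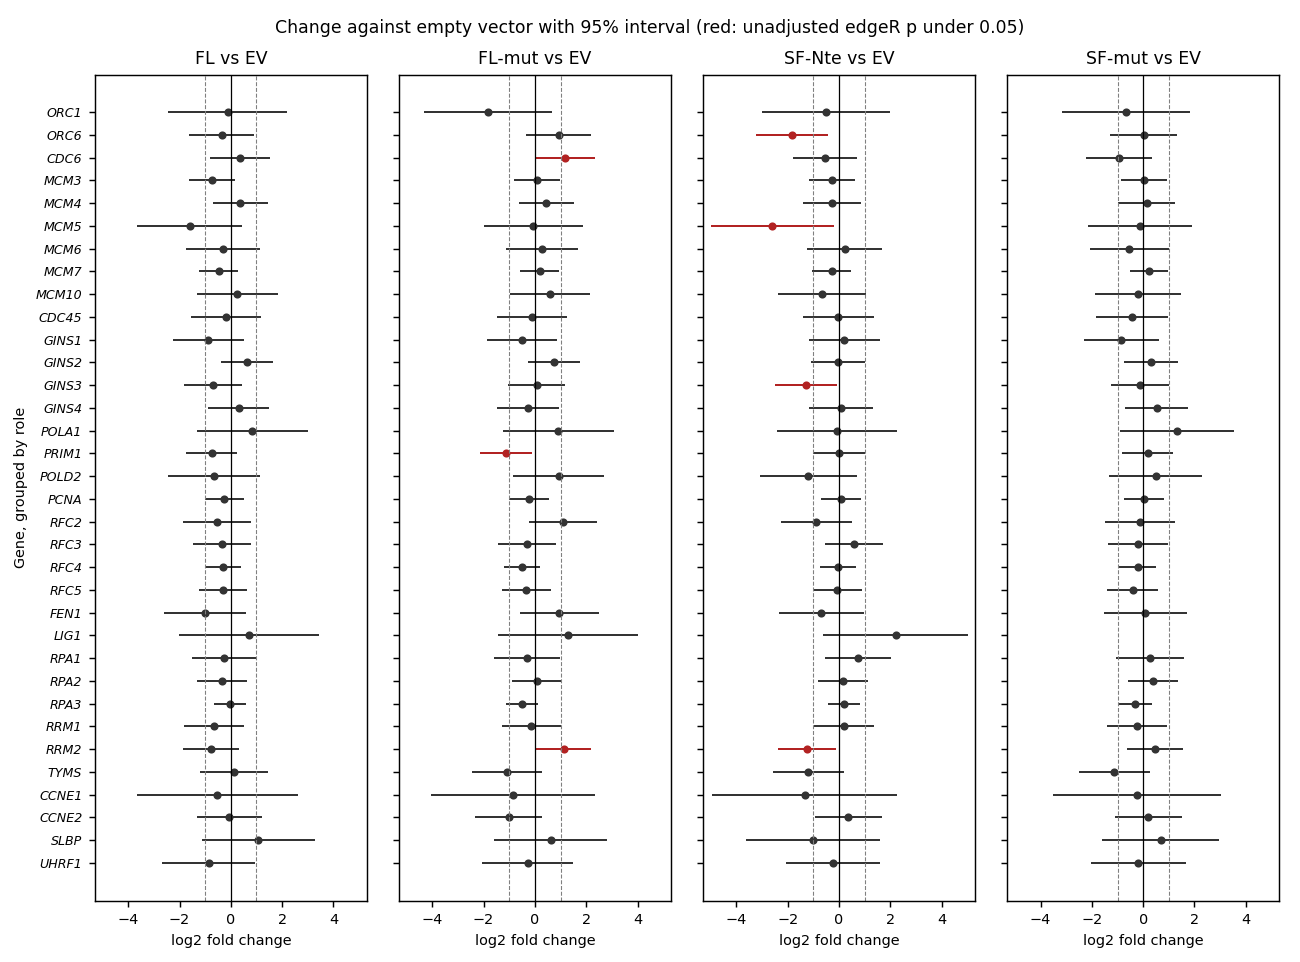
Log2 fold change against EV (points) with its 95% interval (lines) from edgeR for the 34 tested genes, in 4 panels for FL, FL-mut, SF-Nte and SF-mut. Dashed lines mark a halving and a doubling, red marks an unadjusted p under 0.05, and LIG1 is left out of the SF-mut panel because it had 0 counts there. Red intervals number 0, 3, 4 and 0 in panel order.

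The intervals show how far the data bound a change. Against EV the 95% interval lay inside a halving and a doubling for 3 members in FL (PCNA, RFC4 and RPA3), 4 in FL-mut (MCM3, MCM7, PCNA and RPA2), 5 in SF-Nte (PRIM1, PCNA, RFC4, RFC5 and RPA3) and 5 in SF-mut (MCM3, MCM7, PCNA, RFC4 and RPA3). A doubling was outside the interval for 19, 16, 18 and 15 of the 34 in the same order, and a halving for 7, 14, 11 and 12.

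The mutation was compared within each form. Here the log2 fold change of ZBTB18 was 1.29 ± 0.73 in FL-mut against FL and 2.57 ± 0.77 in SF-mut against SF-Nte. Neither passed an adjusted p of 0.05 in edgeR. Construct level and mutation therefore cannot be told apart in either comparison. In FL-mut against FL, 23 members were above 0 and 11 below, with a median of 0.22 against 0.02 over all genes. ORC6, RFC2, FEN1 and RRM2 were higher at an unadjusted p under 0.05, 11.8% of the members against 12.1% of all genes. EdgeR called 0.0887% of genes after adjustment with no member, and DESeq2 called RRM2 among 3.1% of genes (11 members had no adjusted p). Of the 8 licensing genes, 7 were above 0, with a median of 0.73. The median over all members was -0.02 without FL replicate 3 and 0.54 without FL replicate 1, so its size rested on single FL libraries. Without FL replicate 3, 16 of 34 members were above 0.

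In SF-mut against SF-Nte, 20 members were above 0 and 14 below, with a median of 0.20 against 0.05 over all genes. ORC6, MCM5 and RRM2 were higher and LIG1 lower at an unadjusted p under 0.05, again 11.8% of the members, against 8.33% of all genes. After adjustment edgeR called no gene at all (0%) and DESeq2 called 0.0685%, with no member. RRM2 (higher) and RPA3 (lower) did not overlap between the groups, and the share over all genes was not counted for this comparison. The median was -0.11 without SF-mut replicate 1.

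The forms were compared with and without the mutation. Here the log2 fold change of ZBTB18 was -2.26 ± 0.76 in SF-Nte against FL (edgeR adjusted p = 0.189). It was -0.98 ± 0.73 in SF-mut against FL-mut (0.762). Construct level and form therefore cannot be told apart. In SF-Nte against FL, 18 members were above 0 and 16 below, with a median of 0.18 against -0.15 over all genes. The median was -0.11 without SF-Nte replicate 3. ORC6 was lower at an unadjusted p under 0.05 and was the single member counted (2.94%), against 13.2% of all genes. After adjustment edgeR called 1.06% and DESeq2 4.38% of genes, with no member. In SF-mut against FL-mut, 15 members were above 0 and 19 below, with a median of -0.06 against -0.09 over all genes. At an unadjusted p under 0.05, PRIM1 was higher and CDC6 and LIG1 lower (8.82% of members, 9.66% of all genes). EdgeR called 0.163% of genes after adjustment with no member, and DESeq2 called CDC6 among 1.46%. The difference of the mutation's change between forms, (SF-mut - SF-Nte) - (FL-mut - FL), had 1 member at an unadjusted p under 0.05, LIG1 (2.94%), against 4.65% of all genes. After adjustment edgeR called 0.0296% and DESeq2 0.118% of genes, with no member. The 95% interval of that difference lay within a doubling and a halving for RFC4 (-0.93 to 0.96) and RPA3 (-0.85 to 0.83).

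Libraries of a group differed in a way several members shared. After subtracting each group's mean of log2(CPM + 1), the 15 deviations of FEN1, POLD2, ORC6 and RFC2 followed those of RRM2, with correlations of 0.91, 0.82, 0.80 and 0.70. At the other end SLBP, RPA3 and RFC5 had -0.53, -0.53 and -0.50. Of the other 33 tested members 4 (12.1%) were over 0.6, near the 9.61% of all 6766 other genes tested, and 8 (24.2%) were under -0.3, against 33.6% of all. These values are given as a description, since libraries share their depth and amplification. SF-mut replicate 2, FL-mut replicate 2 and EV replicate 1 were the highest of their groups for RRM2, FEN1 and POLD2.

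The same libraries stood apart in GC content. The third of genes richest in GC (over 51.0%) deviated above the third poorest (under 42.8%) by a median of 0.78 log2 units in SF-mut replicate 2, 0.45 in FL-mut replicate 2 and 0.40 in EV replicate 1. The difference was -0.49 in SF-mut replicate 3 and -0.35 in FL-mut replicate 1. Across genes, the correlation with RRM2 was higher with higher GC content, at a Spearman rho of 0.34 over 33 members and 0.35 over 6650 genes, and genes are not independent replicates. RRM2 (45.8% GC) and ORC6 (44.4%) are themselves not rich in GC, while POLD2 (59.1%), FEN1 (53.7%) and RFC2 (53.6%) are. The part of GC content in the levels of these genes was not tested.

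**Figure D4:**
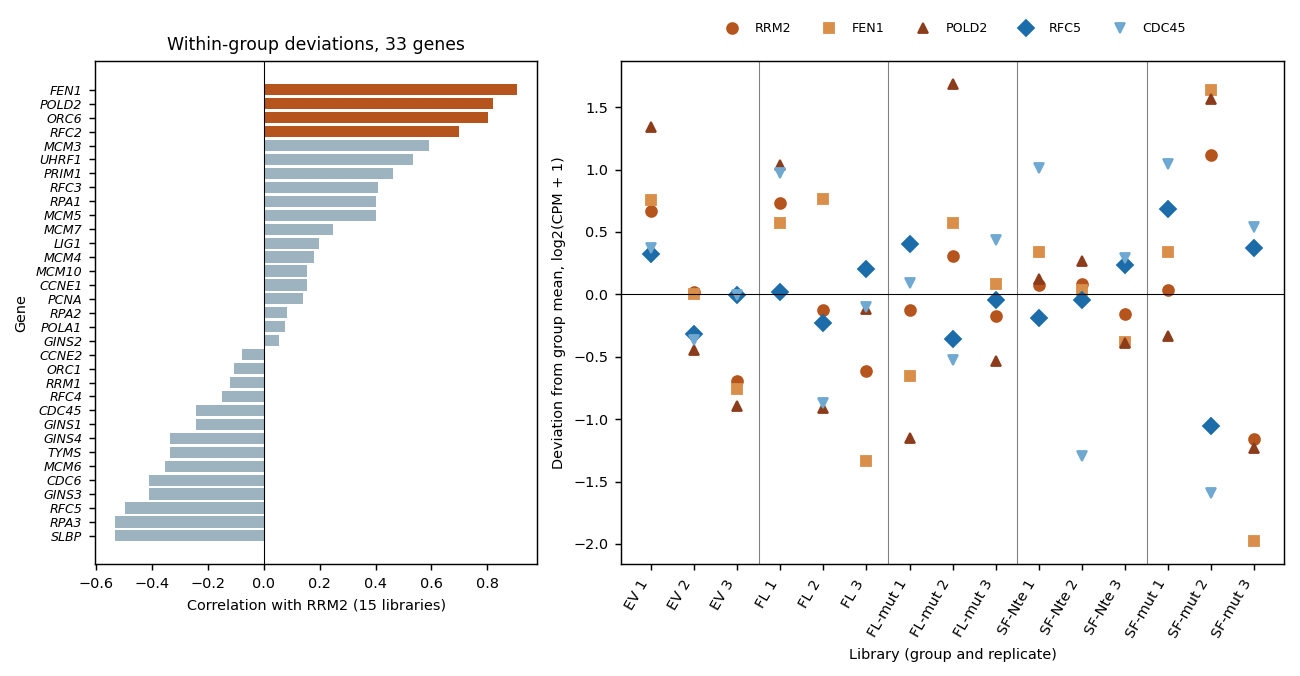
Left, correlation of 33 genes with RRM2 over the deviations of 15 libraries from their group means, with values over 0.6 in brown (FEN1 0.91, POLD2 0.82, ORC6 0.80 and RFC2 0.70). Right, the deviations on the log2(CPM + 1) scale of 5 of the genes in each library, where FEN1 and POLD2 follow RRM2 and CDC45 and RFC5 do not.

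Other cell cycle genes were read from 4 further lists. None of their members passed an adjusted p of 0.05 in edgeR in any comparison. At an unadjusted p under 0.05 in the joint test, 3 of 20 tested other replication genes, 2 of 21 other S phase and E2F-regulated genes, 2 of 29 G2 and mitosis genes and 1 of 4 cyclin kinase inhibitors and pocket proteins were counted, beside the 16.3% of all genes. CLSPN, a mediator of the replication checkpoint, was at 94.0, 88.1 and 43.6 CPM in EV, 49.9, 19.9 and 11.6 CPM in FL, 16.2, 29.4 and 11.8 CPM in FL-mut, 0, 7.53 and 22.4 CPM in SF-Nte and 19.6, 15.4 and 26.7 CPM in SF-mut. All libraries of FL-mut and both short forms were below EV, and FL overlapped EV through replicate 1 (joint edgeR adjusted p = 0.197). RNASEH2A, a subunit of the RNase that removes RNA from DNA, reached 184 CPM in FL-mut replicate 2 and 148 CPM in SF-mut replicate 2 and at most 39.8 CPM elsewhere.

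TK1, the thymidine kinase of S phase, was at 229, 40.1 and 24.9 CPM in EV, 61.7, 59.7 and 15.5 CPM in FL, 75.7, 332 and 573 CPM in FL-mut, 38.5, 22.6 and 29.9 CPM in SF-Nte and 99.7, 228 and 26.7 CPM in SF-mut. Its FL-mut libraries were above all FL libraries (joint edgeR adjusted p = 0.181). CASP8AP2, which has a part in histone gene expression, was at 40.0 to 55.2 CPM in EV and below every EV library in all 4 ZBTB18 groups, at 18.4 to 34.7 CPM in FL, 4.53 to 21.4 CPM in FL-mut, 15.4 to 37.6 CPM in SF-Nte and 12.3 to 24.6 CPM in SF-mut. UBE2C, a ubiquitin-conjugating enzyme of mitotic exit, was at 12.5 to 32.0 CPM in SF-Nte, below every FL and FL-mut library. HMGB2, a chromatin protein, was at 424 to 525 CPM in FL-mut and 721 to 1055 CPM in EV. CDKN1A, the p21 inhibitor, was at 20.2 to 86.0 CPM in FL-mut and at most 19.9 CPM elsewhere, and E2F5 overlapped between all groups.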

How the data were processed

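The table the authors deposited holds raw, whole-number counts by gene symbol, and the submitters' processing notes name the GRCh38 build. Per the labels' protocols, RNA was extracted with Trizol, polyA RNA was isolated on beads, and barcoded cDNA was amplified by PCR for Oxford Nanopore sequencing. Amplified cDNA without molecular identifiers can favour some transcripts, and floors cover counting error only. Not given in the sources used here are the aligner, the annotation and the use of strand. Groups and replicate numbers came from the sample titles.

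Tests used edgeR 4.0.16 (R 4.3.3). The filter filterByExpr (minimum count 10, minimum total 15) kept 6767 genes and removed 11718, TMM scaled the libraries, and all 15 libraries entered a robust quasi-likelihood fit with a mean for each of the 5 groups, leaving 10 residual degrees of freedom. Contrasts for 8 pairs of groups, a joint test and an interaction were adjusted by Benjamini-Hochberg over all genes tested, at 0.05. Standard errors are the log2 fold change divided by the square root of F. Intervals are at 95%. CPM uses TMM-scaled totals. The scripts were tested on simulated data. DESeq2 1.42.0 was an alternative, as were its size factors in edgeR, no filter, a replicate block, fits on 2 groups and leaving out each library. The 3 libraries of each group differed by more than sampling noise (chi-square per gene from 4.23 to 38.0). Deviations of same-number libraries were correlated between EV and FL (0.37, 0.16 and 0.52 over 1975 genes, all over 0.1), so the numbers were taken as pairs there, from the data and not the labels. FL and SF-mut also passed (0.16, 0.17 and 0.38), while EV and SF-mut did not (-0.06, -0.07 and 0.54). FL-mut and SF-mut had the highest single values, 0.61 and 0.67 in replicates 1 and 2, but 0.02 in replicate 3, and did not pass. The GC difference fell with replicate number in both EV (0.40, -0.08 and -0.27) and FL (0.17, 0.06 and -0.22). Its part in the correlation was not tested. With the block, members called in FL against EV stayed at 0, while calls over all genes went from 21 to 25.

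Values of every library were given for ZBTB18, for members past the threshold, for the 3 members of lowest p in each direction against EV and the 2 elsewhere. From each other list the 2 genes of lowest joint p were named, with values by library, by range or as highest values. For some of these only part of the groups was given, and for E2F5 only the overlap. POLD2, FEN1, MCM7, PCNA and GINS3 were added after their values were seen. The members and lists were chosen with earlier results of these data known.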

Additional observations from a re-analysis of the deposited data

How the results depend on the processing

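Of 642 alternative values, 615 were counted as the same. A gene was so counted when it kept its direction and its side of the threshold, and a count when it stayed at 0. Medians were so counted when they moved by less than the SD between libraries of a group, whatever their sign. A median that changed direction could therefore count as the same. The count of members past the threshold in the joint test was 0 of 76 genes called as reported, with 34 members tested. It was 3 with DESeq2 (of 652), 1 with the replicate block (RRM2, of 93) and 0 to 1 with 1 library left out. Without a filter on low counts it was 7 (of 1059), with 39 members tested. These were POLD1, TYMS, ORC6, RFC2, RRM2, LIG1 and POLD2. The share of all genes called without the filter is not given here, so counts in that setting have no background beside them. In FL-mut against FL the count of members was 1 of 112 genes called with DESeq2 and 2 of 348 without the filter, against 0 of 6. In SF-mut against FL-mut it was 1 of 99 with DESeq2 and 1 of 134 without the filter, against 0 of 11. Without the filter it was also 1 of 193 in SF-mut against SF-Nte (0 of 0 as reported) and 1 of 49 in the interaction (0 of 2), LIG1 in these 3. The cause was not tested. The median log2 fold change in SF-Nte against EV was -0.41 without the filter, where 39 members enter in place of 34. Over all genes that median also moved, from -0.13 to -0.21. With 1 library left out the medians ranged from -0.71 to -0.19 in FL against EV, -0.16 to 0.18 in FL-mut against EV, -0.37 to -0.054 in SF-Nte against EV, -0.37 to 0.19 in SF-mut against EV, -0.020 to 0.54 in FL-mut against FL, -0.11 to 0.33 in SF-mut against SF-Nte, -0.11 to 0.46 in SF-Nte against FL and -0.47 to 0.17 in SF-mut against FL-mut. The RRM2 change in SF-mut against EV reversed to -0.25 without SF-mut replicate 2 and ranged up to 0.86 with 1 library left out, and its joint adjusted p in edgeR ranged from 5.11e-05 without the filter to 0.202 without FL-mut replicate 2. Short-form libraries had the fewest counts, so changes of members with few reads are least bounded there. The numbers paired EV with FL alone among the comparisons made, and the block moved no other count of members called. Over all genes it moved the calls by less than 1.5 times, from 76 to 93 in the joint test and 21 to 25 in FL against EV, except in SF-Nte against EV (3 to 5).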
